A study of Mus musculus with 9 samples.

Results

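The annexins described here are the 10 genes Anxa1, Anxa2, Anxa3, Anxa4, Anxa5, Anxa6, Anxa7, Anxa8, Anxa10 and Anxa11, out of 18423 genes in an expression table of mouse stomach glands. They were chosen by family name, as part of a set of gene groups drawn up from earlier results of these same libraries, in which Anxa8 stood out in Ctrl against WT. The values below are therefore a description of the family in these 9 libraries, and the calls on its members are not independent evidence. All 10 members passed the filter on low values, which kept 11209 genes with at least 1 FPKM in at least 3 libraries. FPKM is a fragment count divided by a gene length and by sequencing depth. The length worked out from the values was close to that of all annotated exons joined for most members, as with 3734 against 3731 bases for Anxa2. It was shorter for Anxa7 (2967 against 5991 bases), Anxa10 (1786 against 2292) and Anxa1 (2610 against 2911). Joined exons can differ in length from the transcript made, so orders and shares between different annexins are approximate.

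Messenger RNA was sequenced from glands that had been loosened with EDTA and scraped off the corpus, the acid-producing part of the stomach, taking the tumour-bearing area where there was one. Arid1a_Het glands carried Atp4bCre; Rosa26NICD; Arid1aflox/+, Ctrl glands carried Atp4bCre; Rosa26NICD, and WT glands were wild type, with 3 libraries in each group. Atp4bCre is a Cre recombinase driven by the promoter of Atp4b, a subunit of the proton pump of acid-secreting parietal cells. Rosa26NICD is a transgene for the active intracellular part of Notch that Cre switches on, and Arid1aflox/+ is a Cre-deletable copy of Arid1a, a subunit of a chromatin remodelling complex, beside an intact copy. Arid1a_Het and Ctrl glands therefore share the Notch transgene and differ in the Arid1a allele, while Ctrl and WT glands differ in the transgene and the Cre. Ages are not given in the sources used here, and the labels do not say how many animals each library came from, so that a p-value here speaks only of variation among libraries, technical sources included.

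Annexins are soluble proteins that bind acidic phospholipids of membranes when calcium rises. Through a conserved core of repeats they link or order membranes, and they take part in membrane repair, vesicle traffic, anchoring of the cortical cytoskeleton and the damping of inflammation. In epithelia several of them pair with S100 proteins. Anxa10 is known as the annexin of gastric epithelium, and Anxa8 is best known from stratified epithelia and from progenitors of the mammary gland.

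The sequences before the starts of 3 of the genes are shown because these genes cover the range of what the family did: Anxa8 differed most between groups, Anxa2 was among the other annexins that differed, and Anxa10 was the highest annexin in every library. Each is the 250 bases upstream of the gene's start in RefSeq on GRCm38.p6, 5′ to 3′ along the transcript, in lower case with the letters of searched motifs in capitals. RefSeq promoters were matched by symbol for 8 of the 10 annexins, all but Anxa3 and Anxa6. For Anxa10 the RefSeq start lies upstream of that of GENCODE M21, and the last 7 bases of its RefSeq entry, which runs on past the start, match the first bases of the GENCODE transcript; for Anxa2 the GENCODE start falls inside the printed window. The intervals are chr14:34085729-34085978 on the plus strand for Anxa8, chr9:69453433-69453682 on the plus strand for Anxa2 and chr8:62123194-62123443 on the minus strand for Anxa10.
Anxa8: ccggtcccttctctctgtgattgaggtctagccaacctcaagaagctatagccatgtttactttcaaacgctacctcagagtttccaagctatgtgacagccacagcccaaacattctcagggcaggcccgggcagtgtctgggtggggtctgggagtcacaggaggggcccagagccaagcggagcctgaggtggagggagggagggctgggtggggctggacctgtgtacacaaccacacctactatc
Anxa2: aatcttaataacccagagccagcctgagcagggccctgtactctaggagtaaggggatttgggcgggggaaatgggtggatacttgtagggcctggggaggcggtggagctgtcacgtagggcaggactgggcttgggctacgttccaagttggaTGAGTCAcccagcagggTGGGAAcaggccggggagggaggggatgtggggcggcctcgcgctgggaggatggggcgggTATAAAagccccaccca
Anxa10: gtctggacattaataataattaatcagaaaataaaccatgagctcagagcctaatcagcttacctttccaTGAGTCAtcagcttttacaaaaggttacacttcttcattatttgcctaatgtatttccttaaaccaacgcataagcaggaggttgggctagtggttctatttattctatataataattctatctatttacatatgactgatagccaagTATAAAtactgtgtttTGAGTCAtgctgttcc

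Both strands were searched for TGGGAA, the core letters bound by RBPJ, the DNA-binding partner of the Notch intracellular domain, for TGANTCA, the letters bound by AP-1, and for TATAAA, the TATA box. The annexins were counted by gene, with 2 starts each for Anxa4 and Anxa7, and all promoters by listed start. The shares below are therefore in unlike units. TGGGAA stood in 1 of the 8 annexins, in Anxa2 at bases -78 to -73 from the start, and in 21.6% of all 32851 promoters searched. TGANTCA stood in 2 of the 8, in Anxa10 at -180 to -174 and again at -16 to -10, and in Anxa2 at -95 to -89, against 6.75% of all promoters. TATAAA stood in 3 of the 8, at -32 to -27 in Anxa10 and Anxa1 and at -17 to -12 in Anxa2, against 12.4% of all promoters. The Anxa8 window held none of the 3 motifs in these letters, and the motif matches of different names shown above do not overlap each other. A match of letters is no evidence of binding, and no measurement of binding was used here.

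Anxa10 led the family in each of the 9 libraries. Its level was 1191, 736 and 856 FPKM in Arid1a_Het libraries 1, 2 and 3, 984, 773 and 1210.2 FPKM in Ctrl libraries 1, 2 and 3, and 1207, 850.3 and 1177 FPKM in WT libraries 1, 2 and 3. It stood between rank 18 and rank 45 of all 18423 genes, and the 3 groups overlapped throughout. The gene lies on chromosome 8 of GRCm38, from 62057042 to 62123150 on the minus strand.

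Anxa8 was at the other end of the family in WT glands and near its top in both groups with the Notch transgene. It had 150.0, 64.8 and 377 FPKM in Arid1a_Het libraries 1, 2 and 3, and 119.6, 168 and 151 FPKM in Ctrl libraries 1, 2 and 3, against 0.985, 1.64 and 0.275 FPKM in WT libraries 1, 2 and 3. No Arid1a_Het or Ctrl library came near a WT library, and among the Arid1a_Het libraries number 3 was the highest and number 2 the lowest. In whole reads worked out from the FPKM values this was 8077, 3448 and 20588 reads in Arid1a_Het, 5099, 9305 and 7679 reads in Ctrl, and 43, 81 and 12 reads in WT, so the WT level was low but counted in every library. Among all genes of a library Anxa8 ranked 261, 745 and 97 in Arid1a_Het and 361, 234 and 245 in Ctrl, against 10607, 9060 and 12178 in WT. Anxa8 lies on chromosome 14 of GRCm38, from 34085981 to 34100571 on the plus strand. A gene on the opposite strand that overlaps it, A630023A22Rik, reached at most 0.500 FPKM.

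Anxa2, which forms a complex with S100a10 at the plasma membrane and binds actin and plasminogen, was the annexin next to Anxa10 in Ctrl glands. It had 344, 157 and 483 FPKM in Arid1a_Het, 363, 315 and 542 FPKM in Ctrl, and 139, 40.2 and 94.4 FPKM in WT, each time for libraries 1, 2 and 3. Every Arid1a_Het and Ctrl library was above every WT library, while the Arid1a_Het and Ctrl ranges overlapped. It lies on chromosome 9, from 69453620 to 69491795 on the plus strand.

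Anxa1, whose protein and N-terminal peptides dampen neutrophil recruitment through formyl peptide receptors, followed the same order at lower levels. Its values were 129.5, 55.1 and 169.6 FPKM in Arid1a_Het, 132, 147 and 175 FPKM in Ctrl, and 54.8, 18.0 and 43.5 FPKM in WT. The lowest Arid1a_Het library, number 2, lay just above the highest WT library, number 1. The gene lies on chromosome 19, from 20373428 to 20390944 on the minus strand.

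Anxa5, the phosphatidylserine-binding annexin used to stain dying cells, had 96.3, 83.9 and 123 FPKM in Arid1a_Het, 114, 108 and 129 FPKM in Ctrl, and 70.3, 52.6 and 60.6 FPKM in WT. Both transgenic groups again stood wholly above WT, by a smaller factor than for Anxa1 and Anxa2. Anxa3, an annexin of granule-bearing and some epithelial cells, had 119, 60.1 and 152 FPKM in Arid1a_Het, 104, 97.7 and 141 FPKM in Ctrl, and 73.8, 45.4 and 65.1 FPKM in WT. Here Ctrl stood wholly above WT, whereas Arid1a_Het library 2 fell inside the WT range. Anxa5 lies on chromosome 3, from 36448923 to 36475894 on the minus strand, and Anxa3 on chromosome 5, from 96793339 to 96845966 on the plus strand.

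The other 4 members overlapped between all groups. Anxa4, an annexin of secretory epithelia that binds apical and vesicle membranes, varied least, with 126, 109 and 134 FPKM in Arid1a_Het, 115, 118 and 125 FPKM in Ctrl, and 137, 101 and 114 FPKM in WT. Its highest library exceeded its lowest by a factor of only 1.36, against 1371 for Anxa8. Anxa7, which aids membrane fusion in secretion, ranged from 68.8 to 100.3 FPKM in Arid1a_Het, from 88.4 to 100.2 FPKM in Ctrl and from 69.6 to 89.3 FPKM in WT. Anxa11, which tethers RNA granules to lysosomes and takes part in cell division, ranged from 15.9 to 33.5 FPKM in Arid1a_Het, from 29.5 to 32.5 FPKM in Ctrl and from 13.9 to 32.8 FPKM in WT. Anxa6, which carries a doubled core, was the lowest member outside WT, at 7.43 to 16.8 FPKM in Arid1a_Het, 7.10 to 15.6 FPKM in Ctrl and 9.84 to 11.2 FPKM in WT. On GRCm38 they lie at 86736840 to 86793584 of chromosome 6 (Anxa4, minus strand), 20455260 to 20480133 of chromosome 14 (Anxa7, minus), 25842156 to 25886804 of chromosome 14 (Anxa11, plus) and 54979108 to 55033445 of chromosome 11 (Anxa6, minus). An antisense gene, Anxa11os, overlaps Anxa11; the library kit keeps strand, but whether the counting used it is not given in the sources used here.

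**Figure D1:**
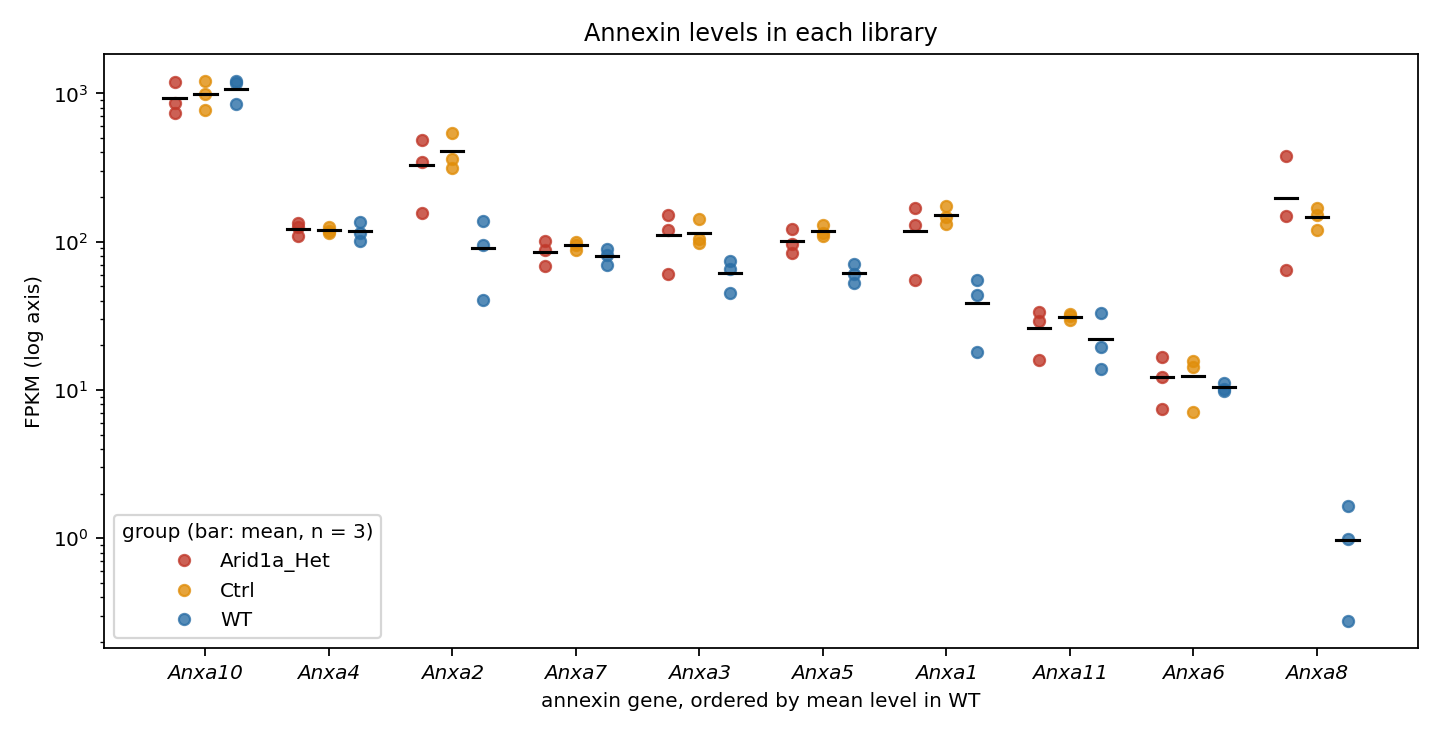
Level of each of the 10 annexins in every library (vertical axis, FPKM on a log axis), ordered from left to right by mean level in WT, with Arid1a_Het, Ctrl and WT libraries as coloured points and the mean of the 3 libraries of a group as a bar. Anxa10 lies at the top in all groups, Anxa4 is nearly level, and Anxa8 runs from 0.275 to 1.64 FPKM in WT but from 64.8 to 377 FPKM in Arid1a_Het and from 119.6 to 168 FPKM in Ctrl.

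By group mean, the order in Arid1a_Het glands was Anxa10 at 928 ± 236, Anxa2 at 328 ± 164, Anxa8 at 197 ± 161, Anxa4 at 123 ± 12.9, Anxa1 at 118 ± 58.1, Anxa3 at 111 ± 46.7, Anxa5 at 101 ± 19.7, Anxa7 at 85.7 ± 15.9, Anxa11 at 26.2 ± 9.17 and Anxa6 at 12.2 ± 4.68 FPKM (SD, n = 3). In Ctrl glands it was Anxa10 at 989 ± 219, Anxa2 at 407 ± 119, Anxa1 at 151 ± 21.7, Anxa8 at 146 ± 24.5, Anxa4 at 119 ± 4.97, Anxa5 at 117 ± 10.8, Anxa3 at 114 ± 23.5, Anxa7 at 94.5 ± 5.92, Anxa11 at 31.2 ± 1.56 and Anxa6 at 12.3 ± 4.57 FPKM (SD, n = 3). In WT glands it was Anxa10 at 1078 ± 198, Anxa4 at 117 ± 18.2, Anxa2 at 91.1 ± 49.3, Anxa7 at 80.0 ± 9.93, Anxa3 at 61.4 ± 14.6, Anxa5 at 61.2 ± 8.88, Anxa1 at 38.8 ± 18.9, Anxa11 at 22.1 ± 9.72, Anxa6 at 10.4 ± 0.679 and Anxa8 at 0.965 ± 0.681 FPKM (SD, n = 3). The ranges of mean ± SD of neighbours in these orders overlapped from Anxa2 to Anxa7 in Arid1a_Het, from Anxa1 to Anxa7 in Ctrl and from Anxa4 to Anxa11 in WT. Outside these stretches neighbours stood apart. Within them, the group means and SDs alone do not rank a member apart from the next. Some orders still held library by library, as with Anxa2 above Anxa8 in Arid1a_Het and Anxa5 above Anxa1 in WT. Others did not, as with Anxa4 and Anxa1 in Arid1a_Het.

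The make-up of the family within a library shows the same contrast without a comparison of depth between libraries. Anxa10 made up 35.2 to 54.0% of the summed FPKM of the 10 annexins in Arid1a_Het and 41.4 to 47.6% in Ctrl, against 66.5 to 70.7% in WT. Anxa2 made up 15.5 ± 4.20% in Arid1a_Het and 18.4 ± 2.05% in Ctrl, against 5.55 ± 2.15% in WT (SD, n = 3). Anxa8 made up 8.93 ± 5.75% in Arid1a_Het and 6.85 ± 1.85% in Ctrl, against 0.0690 ± 0.0612% in WT. The level of Anxa10 itself overlapped between groups, so its smaller share in the transgenic groups went with a larger sum of the other members. Without Anxa10 that sum was 1101 ± 475 FPKM in Arid1a_Het and 1193 ± 182 FPKM in Ctrl, against 483 ± 128 FPKM in WT (SD, n = 3). Of the total FPKM of a library, the 10 annexins took 0.516 ± 0.186% in Arid1a_Het and 0.604 ± 0.139% in Ctrl, against 0.379 ± 0.108% in WT.

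**Figure D2:**
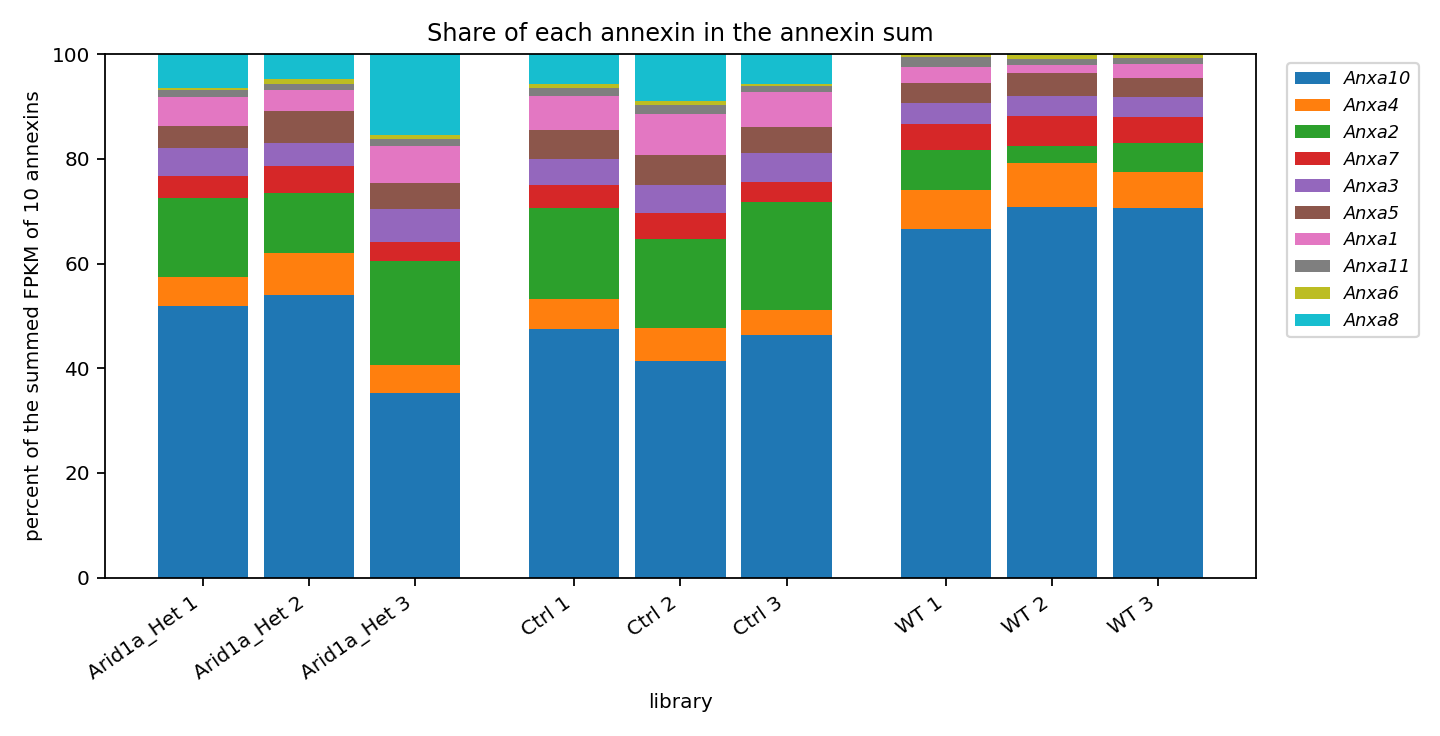
Share of each annexin in the summed FPKM of the 10 annexins (vertical axis, percent), as stacked bars for the 3 Arid1a_Het, 3 Ctrl and 3 WT libraries. Anxa10 takes 66.5 to 70.7% in WT and less in every transgenic library, where the Anxa2 and Anxa8 segments are wider.

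Ratios between annexins in the same library separated the groups in the same way. Anxa5 over Anxa4 was 0.767, 0.773 and 0.916 in the Arid1a_Het libraries and 0.994, 0.922 and 1.04 in the Ctrl libraries, against 0.514, 0.522 and 0.532 in WT, so the 3 groups did not overlap on this ratio, which was chosen after the values were seen. Anxa2 over Anxa10 was 0.289, 0.213 and 0.565 in the Arid1a_Het libraries and 0.369, 0.408 and 0.448 in the Ctrl libraries, against 0.115, 0.0473 and 0.0802 in WT. Anxa2 over Anxa1 stayed between 2.14 and 3.10 in all 9 libraries. Anxa8 over Anxa1, by contrast, was 1.16, 1.18 and 2.22 in Arid1a_Het and 0.906, 1.14 and 0.865 in Ctrl, against 0.0180, 0.0910 and 0.00632 in WT. Anxa8 was thus not simply scaled with Anxa1 between WT and the transgenic glands. A ratio within a library shows that members differed unequally and not which of them stayed level.

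Ctrl against WT sets glands with the Notch transgene and its Cre against wild-type glands. Sampling of tumour-bearing area and cell make-up cannot be told apart from the genotype here. In this comparison Anxa8, Anxa2, Anxa1 and Anxa5 were higher in Ctrl, by 151, 4.47, 3.90 and 1.92 times in mean FPKM, and no member was called lower. The factor for Anxa8 was 232 without WT library 2 and 112 without WT library 3. The test was limma on log2(FPKM + 1) without a replicate block, with Benjamini-Hochberg adjustment over all 11209 genes. Log2 fold changes on that scale understate the change of low genes such as Anxa8 in WT. Anxa8 had a log2 fold change of 6.27 ± 0.54 (SE, adjusted p = 0.000445 by limma). Anxa2 had 2.28 ± 0.50 (adjusted p = 0.0245), Anxa1 had 2.07 ± 0.46 (adjusted p = 0.0256) and Anxa5 had 0.94 ± 0.18 (adjusted p = 0.0159), all by limma. The 4 called members compare with 7.01% of all tested genes called higher and 3.04% called lower in this comparison. In 5 of the 10 members, the 4 called ones and Anxa3, every Ctrl library was above every WT library, as in 33.5% of all tested genes. Since earlier results of this contrast were known when the family was picked, nothing is read from these shares.

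Anxa3 was not called, with a log2 fold change of 0.90 ± 0.33 (SE) and an adjusted p of 0.107 by limma. With the replicate number as a block it was called, at an adjusted p of 0.0226. Anxa11 had 0.56 ± 0.33 (adjusted p = 0.246), Anxa7 0.24 ± 0.17 (0.319), Anxa6 0.16 ± 0.32 (0.733), Anxa4 0.03 ± 0.15 (0.882) and Anxa10 -0.13 ± 0.26 (0.726), all by limma. For Anxa4 and Anxa10 the 95% intervals of the log2 fold change ran from -0.31 to 0.38 and from -0.71 to 0.44, so that a change of 2 times in either direction lay outside both. The median log2 fold change was 0.73 over the members and 0.24 over all tested genes, so the table as a whole leaned positive. Measured from that median, Anxa5 stood at 0.70, Anxa1 at 1.83, Anxa2 at 2.04 and Anxa8 at 6.04, while Anxa4, Anxa6 and Anxa10 stood below it.

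The call on Anxa8 held under every alternative run, whereas those on Anxa1, Anxa2 and Anxa5 were lost in several runs with 1 library left out. Without Ctrl library 1, Ctrl library 3, WT library 2 or WT library 3 only Anxa8 was called, and without Ctrl library 2 only Anxa8 and Anxa5. Genes called over the whole table also fell in these runs, from 1127 to between 260 and 414. Without WT library 1 all 4 annexins stayed called, with 1044 genes called over the whole table. Each run with a Ctrl or WT library left out has fewer libraries in a group. Why calls were lost in some of these runs was not tested. Over all alternatives the adjusted p reached 0.103 for Anxa1 and for Anxa2 and 0.0677 for Anxa5, with log2 fold changes of at least 1.60, 1.78 and 0.67.

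Arid1a_Het against Ctrl sets glands with a Cre-deletable Arid1a copy on top of the Notch transgene against glands with the transgene alone. No annexin was called by limma, none reached an unadjusted p under 0.05, and the ranges of the 2 groups overlapped for all 10 members. Anxa8 averaged 197 ± 161 FPKM in Arid1a_Het and 146 ± 24.5 FPKM in Ctrl (SD, n = 3), a log2 fold change of 0.09 ± 0.54 (SE, adjusted p = 0.947 by limma). Without Arid1a_Het library 3 the ratio of its means was 0.735, against 1.35 with it. The 95% interval of the log2 fold change ran from -1.12 to 1.30, which leaves room for a change in either direction of more than 2 times. Anxa1 had -0.49 ± 0.46 (adjusted p = 0.654), Anxa2 -0.42 ± 0.50 (0.719), Anxa11 -0.31 ± 0.33 (0.686) and Anxa5 -0.23 ± 0.18 (0.594). The narrowest interval was that of Anxa4, from -0.31 to 0.38 around 0.04 ± 0.15 (adjusted p = 0.928 by limma). The other 4, Anxa3, Anxa6, Anxa7 and Anxa10, had log2 fold changes from -0.15 to -0.02. Of all tested genes, 0% were called higher and 0.00892%, 1 gene, lower, while every Arid1a_Het library stood above every Ctrl library in 2.41% of tested genes. At an unadjusted p under 0.05 there were 1305 genes, 11.6% of those tested, and 0 annexins; the limma voom fit to whole reads also called 0. The median was -0.14 over the members and -0.16 over all tested genes.

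Arid1a itself, the targeted gene, had 8.94, 5.90 and 6.96 FPKM in Arid1a_Het and 14.9, 13.3 and 16.2 FPKM in Ctrl, with every Arid1a_Het library below every Ctrl library. The spread of the annexins within Arid1a_Het was wide: library 2 was the lowest of the 3 for Anxa1, Anxa2, Anxa3, Anxa4, Anxa5, Anxa7, Anxa8, Anxa10 and Anxa11, and library 3 the highest for all of these but Anxa7 and Anxa10. Library 2 also had the highest pepsinogen Pgc, at 17.9% of all FPKM, against 3.34% and 1.89% in Arid1a_Het libraries 1 and 3.

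Glands with both changes are set against wild-type glands in Arid1a_Het against WT, which uses the same WT libraries as Ctrl against WT. Anxa8 was called higher in Arid1a_Het, by 204 times in mean FPKM and by a log2 fold change of 6.37 ± 0.54 (SE, adjusted p = 0.000792 by limma). The factor was 111 without Arid1a_Het library 3, a library added to the series under a later registration, and 313 without WT library 2. Anxa8 was the 1 member called, beside 2.06% of all tested genes called higher and 0.687% called lower. Anxa2 had 1.86 ± 0.50 (adjusted p = 0.0877), Anxa1 1.58 ± 0.46 (0.111), Anxa3 0.77 ± 0.33 (0.275) and Anxa5 0.70 ± 0.18 (0.0747), none of them called. For Anxa1, Anxa2, Anxa5 and Anxa8 every Arid1a_Het library was nevertheless above every WT library, as in 10.6% of all tested genes. Without Arid1a_Het library 2, the Pgc-rich one, 5 members were called, Anxa1, Anxa2, Anxa3, Anxa5 and Anxa8. The median was 0.48 over the members and 0.02 over all tested genes. Anxa10 at -0.23 ± 0.26, Anxa4 at 0.07 ± 0.15, Anxa6 at 0.14 ± 0.32, Anxa7 at 0.09 ± 0.17 and Anxa11 at 0.26 ± 0.33 were not called.

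**Figure D3:**
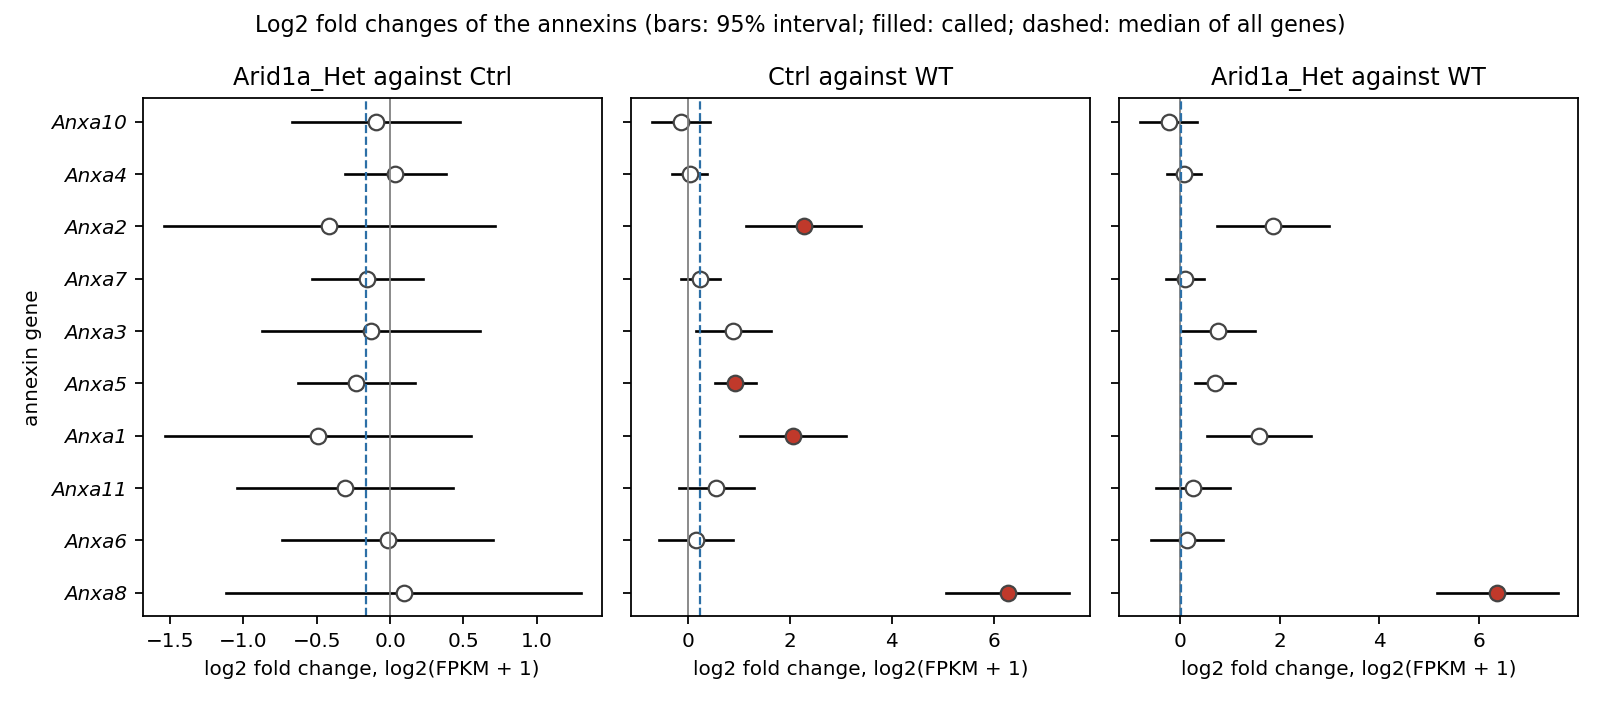
Log2 fold change of each annexin on log2(FPKM + 1) (horizontal axis) with its 95% interval from limma, for Arid1a_Het against Ctrl, Ctrl against WT and Arid1a_Het against WT, with filled points for adjusted p under 0.05 and a dashed line at the median of all tested genes; the horizontal scales differ between panels. Every interval in Arid1a_Het against Ctrl includes 0, and Anxa8 lies near 6 in both comparisons with WT.

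Several annexins work as complexes with S100 proteins, small calcium-binding dimers, and the Anxa2 and S100a10 complex is a surface site for plasminogen activation. A list of 16 partner genes was read in the same fit, of which 13 passed the filter. In Ctrl against WT 4 of the 13 were called higher and none lower, in Arid1a_Het against WT 3 were called higher and none lower, and in Arid1a_Het against Ctrl none was called, the lowest adjusted p by limma being 0.397. The shares of all tested genes called higher were 7.01%, 2.06% and 0% in these 3 comparisons.

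Among the S100 genes, S100a10, the partner of Anxa2, had 71.8, 54.9 and 148 FPKM in Arid1a_Het, 139, 82.1 and 133 FPKM in Ctrl, and 66.2, 20.5 and 54.3 FPKM in WT. It was not called in Ctrl against WT, with a log2 fold change of 1.43 ± 0.47 and an adjusted p of 0.0833 by limma. Anxa2 over S100a10 in the same library was 4.79, 2.86 and 3.26 in the Arid1a_Het libraries and 2.61, 3.84 and 4.09 in the Ctrl libraries, against 2.09, 1.96 and 1.74 in WT, so Anxa2 stood higher relative to its partner in every transgenic library than in any WT library. S100a11, the partner of Anxa1, averaged 357 ± 114 FPKM in Arid1a_Het and 409.6 ± 41.3 FPKM in Ctrl, against 138 ± 62.4 FPKM in WT (SD, n = 3). It was called in Ctrl against WT, at 1.67 ± 0.36 (adjusted p = 0.0235 by limma), and not in Arid1a_Het against WT, at 1.42 ± 0.36 (adjusted p = 0.0753 by limma). Anxa1 over S100a11 overlapped between all groups, at 0.318, 0.244 and 0.387 in the Arid1a_Het libraries, 0.338, 0.322 and 0.458 in the Ctrl libraries and 0.276, 0.244 and 0.308 in the WT libraries. S100a6, which binds Anxa2, Anxa6 and Anxa11, averaged 2266 ± 408 FPKM in Arid1a_Het and 1814 ± 192.5 FPKM in Ctrl, against 608.5 ± 121 FPKM in WT, and was called in both comparisons with WT, at 1.90 and 1.59 (adjusted p = 0.00334 and 0.00492 by limma).

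Of the 4 plasminogen activation genes, 2 were called higher in each comparison with WT. Plat, the tissue plasminogen activator, had 17.1, 21.4 and 49.1 FPKM in Arid1a_Het and 42.6, 94.2 and 88.8 FPKM in Ctrl, against 2.94, 2.78 and 0.510 FPKM in WT. Its log2 fold changes were 3.27 ± 0.49 in Arid1a_Het against WT and 4.67 ± 0.49 in Ctrl against WT (adjusted p = 0.0114 and 0.00162 by limma). Plaur, the receptor of urokinase, was higher by 2.78 ± 0.45 and 3.48 ± 0.45 in the same comparisons (adjusted p = 0.0148 and 0.00361 by limma). Plau, urokinase itself, was not called, at 1.93 ± 0.51 and 1.45 ± 0.51 (adjusted p = 0.0844 and 0.0970), and neither was Serpinb2. None of the 4 tested other partners, Ahnak, Pdcd6, Sri and Pla2g4a, was called in any comparison. The formyl peptide receptors Fpr1 and Fpr2, through which Anxa1 acts on leukocytes, did not pass the filter and reached at most 0.950 and 1.41 FPKM.

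**Figure D4:**
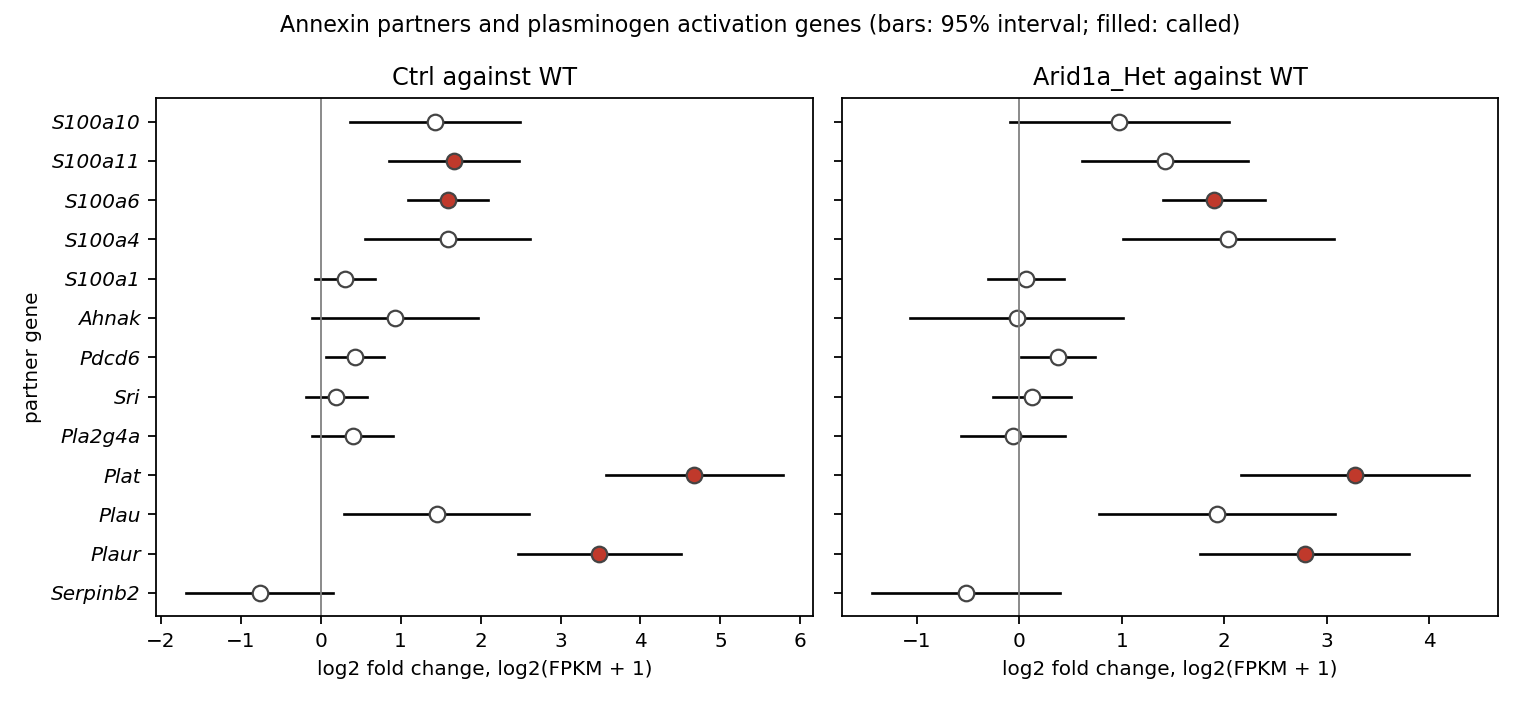
Log2 fold change on log2(FPKM + 1) (horizontal axis) of the 13 tested partner and plasminogen activation genes with 95% intervals from limma, in Ctrl against WT and Arid1a_Het against WT; filled points have an adjusted p under 0.05 and the horizontal scales differ between panels. Plat and Plaur lie farthest to the right in both panels, and the interval of S100a10 includes 0 in Arid1a_Het against WT alone.

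The genes whose levels followed the 4 widest-ranging annexins most closely were read by Pearson's r on log2(FPKM + 1) over the 9 libraries, among all tested genes. All 9 points come from 3 groups that differ in many genes, so a high r is shared by many genes and is given as a description. Closest to Anxa8 were the serine protease gene Prss22 (r = 0.995), the fatty acid elongase gene Elovl5 (r = 0.994) and Cdkn2a, a cell cycle inhibitor gene (r = 0.993). Prss22 averaged 61.3 FPKM in Arid1a_Het and 54.1 FPKM in Ctrl, against 0.198 FPKM in WT, and Cdkn2a averaged 7.15 FPKM in Arid1a_Het and 5.27 FPKM in Ctrl, against 0.0555 FPKM in WT. Closest to Anxa2 were the Polycomb gene Phc2 (r = 0.994), Anxa1 (r = 0.991) and Tsc22d1 (r = 0.990). Closest to Anxa1 were the histone chaperone gene Nap1l1 (r = 0.993), the actin crosslinker gene Actn1 (r = 0.992) and Anxa2 (r = 0.991), so that Anxa1 and Anxa2 were among each other's 3 nearest genes out of 11209. Closest to Anxa3 were Prrg4 (r = 0.992), the glycosyltransferase gene Mgat4a (r = 0.991) and the purine synthesis gene Adss (r = 0.988). With Anxa8 the other annexins had r from -0.303 for Anxa10 to 0.918 for Anxa5, with Anxa2 at 0.864 and Anxa1 at 0.852.

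Glands scraped from tissue can bring other cells with them, and in bulk samples fewer cells of a type and less RNA per cell cannot be told apart. Anxa8 and Anxa1 are also made by squamous epithelium such as that of the neighbouring forestomach. The summed FPKM of 12 squamous genes was 413, 242 and 1047 in Arid1a_Het and 290.0, 341 and 800.1 in Ctrl, against 609.9, 97.9 and 46.3 in WT. WT library 1 had a squamous sum above 4 of the 6 transgenic libraries, and 0.985 FPKM of Anxa8. The genes of the list did not move together: Lor was 145 FPKM in WT library 1 and at most 2.62 FPKM elsewhere, whereas Sprr1a was 74.4 FPKM in WT library 1 and 181 to 647 FPKM in the transgenic libraries, and Ivl 0.807 FPKM in WT library 1 and 2.70 to 68.2 FPKM in the transgenic libraries. Arid1a_Het library 3, the highest in Anxa8, also had the highest Krt5, at 60.9 FPKM. Krt4 was 36.5 to 322 FPKM in the transgenic libraries, against 90.3, 0.249 and 0.0808 FPKM in WT libraries 1, 2 and 3. Of the 12 genes, 8 were tested and 2 called higher in Ctrl against WT, none in the other comparisons. Trp63, the defining transcription factor, stayed under 1 FPKM everywhere, also in WT library 1 with its 145 FPKM of Lor.

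Anxa1 and Anxa3 are also abundant in neutrophils. The sum of 10 leukocyte genes was 11.3 to 111 FPKM in Arid1a_Het, 48.4 to 98.0 FPKM in Ctrl and 3.12 to 13.3 FPKM in WT. Of these genes, 2 were called higher in Ctrl against WT. S100a9 had 3.34, 5.35 and 58.8 FPKM in Arid1a_Het, 24.2, 56.9 and 36.1 FPKM in Ctrl, and 0.825, 1.24 and 0.412 FPKM in WT. S100a8 had 1.01, 2.50 and 25.5 FPKM in Arid1a_Het, 10.7, 24.2 and 20.0 FPKM in Ctrl, and 0.310, 0.930 and 0.248 FPKM in WT. Mpo and Ly6g, also on the list, stayed under 1 FPKM everywhere. Arid1a_Het library 1 had a sum of 11.3 FPKM on this list, inside the WT range, with 150.0 FPKM of Anxa8 and 129.5 FPKM of Anxa1. Its S100a9 and S100a8, at 3.34 and 1.01 FPKM, were above the highest WT values of 1.24 and 0.930 FPKM. The other genes of the list went both ways in that library. Markers of the gland cells also differed between groups: the sum of 6 parietal genes was 339 to 4547 FPKM in Arid1a_Het and 187 to 943 FPKM in Ctrl, against 2603 to 13245 FPKM in WT, with 4 genes called lower in Ctrl against WT and 1 in Arid1a_Het against WT. The sum of 6 pit cell genes was 46581 to 80518 FPKM in Arid1a_Het and 39374 to 45097 FPKM in Ctrl, against 69678 to 93897 FPKM in WT, with 2 genes called lower in Ctrl against WT. Among 6 neck cell and metaplasia genes, 3 were called higher in each comparison with WT. Pgc, the chief cell pepsinogen, took 17.9% and 16.5% of all FPKM in Arid1a_Het library 2 and WT library 2, and 1.49 to 8.38% elsewhere. These were the lowest libraries of their groups for Anxa1, Anxa2, Anxa3, Anxa4, Anxa5, Anxa7, Anxa10 and Anxa11. Anxa8 was lowest of its group in Arid1a_Het library 2 but highest of its group in WT library 2. Exocrine pancreas genes summed to 1416 FPKM in Arid1a_Het library 3 and 3741 FPKM in Ctrl library 1, against 79.9 to 326 FPKM in the other libraries. Fibroblast sums overlapped between groups and endothelial sums stayed between 3.02 and 6.65 FPKM. The part that such differences in cell make-up have in the annexin levels was not tested.

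**Figure D5:**
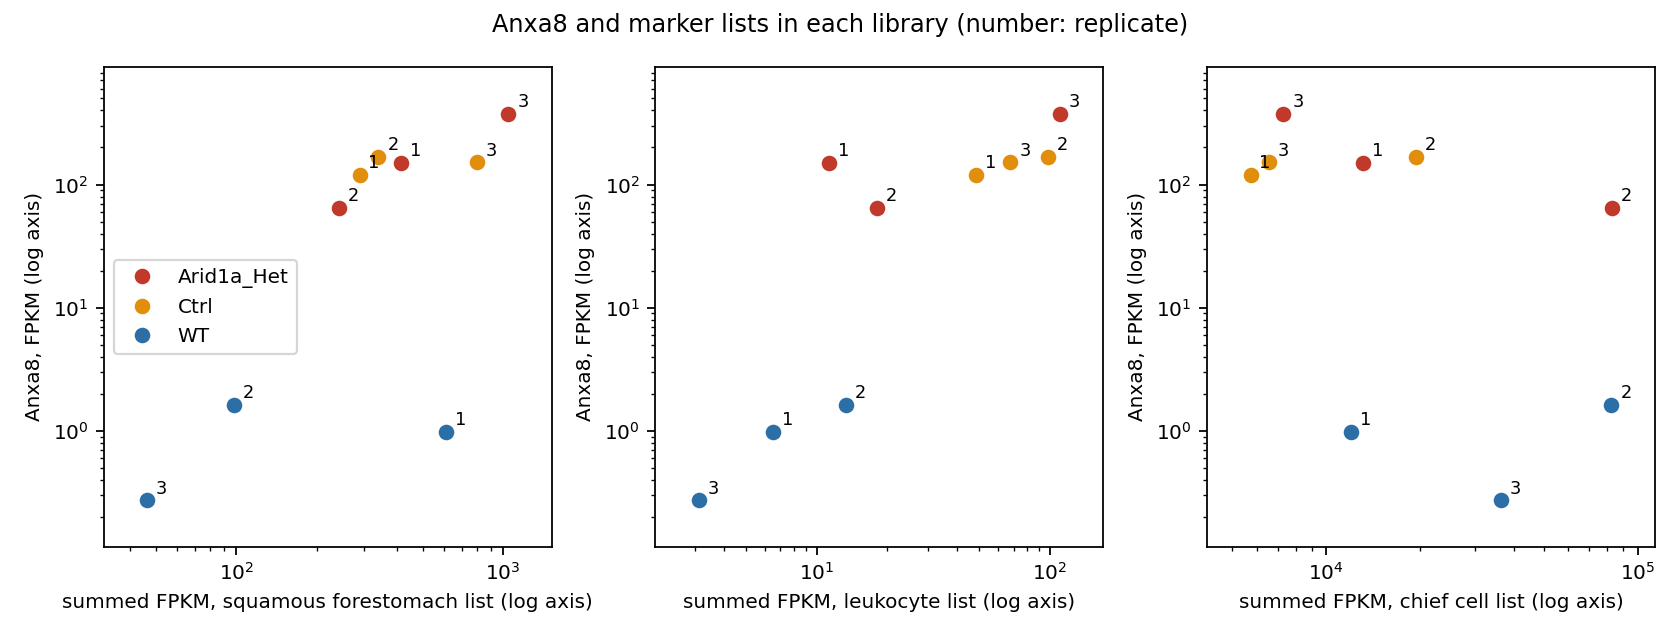
Anxa8 level (vertical axis, FPKM, log axis) against the summed FPKM of the squamous, leukocyte and chief cell marker lists (horizontal axes, log), 1 point per library, coloured by group and numbered by replicate. WT library 1 has a squamous sum of 609.9 FPKM with 0.985 FPKM of Anxa8, and Arid1a_Het library 1 a leukocyte sum of 11.3 FPKM with 150.0 FPKM of Anxa8.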

How the data were processed

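Poly(A) RNA of stomach glands was sequenced in 9 libraries, 3 each of Arid1a_Het, Ctrl and WT, from a kit that keeps strand, per the labels' protocols. The authors deposited 1 table of FPKM for 18423 genes; STAR 2.4.2a and the builds GRCm38 and mm10 are named in the submitters' processing notes, and the counting step is not given in the sources used here. Every gene's FPKM values were whole multiples of the worth of 1 read, within a tolerance of 0.01, in 100% of genes, which gave 22651385 to 29478481 reads per library.

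Genes with at least 1 FPKM in at least 3 libraries (11209 kept, 7214 left out) were tested with limma 3.58.1 (R 4.3.3, lmFit and eBayes with trend) on log2(FPKM + 1), in 1 fit of group means over all 9 libraries, with Benjamini-Hochberg adjustment over all genes and a threshold of 0.05. The members and gene lists were chosen with earlier results of these data known. The genes named are the annexins in the table, the partner genes of lowest p, and the 3 genes of highest Pearson r with each of the 4 widest-ranging annexins; S100a10, S100a11, Plau and the genes listed as not called were named after their values were seen. 1 gene of the partner lists is not reported here. The script was tested on simulated data. Positions are from GENCODE M21 and promoters from RefSeq GRCm38.p6.

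Deviations from the group mean of same-numbered Ctrl and WT libraries were positively correlated (0.207, 0.336 and 0.138). Differently numbered libraries were not compared, and the labels do not say what a number marks. Whether a shared number pairs Ctrl with WT is therefore not known. The main fit had no replicate block, so its p-values leave such a pairing out, and the block was run as an alternative. Correlations of Arid1a_Het with Ctrl (-0.151 to 0.467) and with WT (-0.279 to 0.563) were of mixed sign. Both were highest for number 2. Alternatives covered the pseudocount, the filter, the scaling, the variance model, the replicate block, limma voom on whole reads and left-out libraries; leaving out the 2 libraries rich in Pgc, and each library from the ratios of means, was added after seeing the data.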

Additional observations from a re-analysis of the deposited data

How the results depend on the processing

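Each result was recomputed under 22 alternatives. Of the 10 annexins, 4 were called in Ctrl against WT, and this count was 2 with no filter and 1 to 5 with 1 library left out; it was 5 with the replicate block and 6 with array weights, which added Anxa3 and Anxa11. In Arid1a_Het against WT 1 was called, against 2 with median-ratio scaling, 5 with array weights, 4 with the replicate block, 3 without the 2 Pgc-rich libraries and 1 to 5 with 1 library left out. Same-numbered libraries of Arid1a_Het and the other groups did not deviate together throughout. In every comparison the block rests on a shared number only, whose meaning the labels do not give. In Arid1a_Het against Ctrl the count was 0 under every alternative. Median-ratio scaling moved the median of all genes in Ctrl against WT from 0.24 to 0.01.

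The direction turned round only in values that were not called. In Ctrl against WT, Anxa4 was -0.23 with median-ratio scaling, -0.0084 with quantile normalization, -0.0039 with array weights, -0.0675 without the Pgc-rich libraries and -0.07 to 0.15 with 1 library left out. Anxa6 was -0.086 with median-ratio scaling, -0.0897 with quantile normalization, -0.0319 without the pancreas-rich libraries and -0.03 to 0.49 with 1 left out, Anxa7 was -0.0216 with median-ratio scaling, and Anxa10 was -0.29 to 0.0348 with 1 left out. In Arid1a_Het against Ctrl, median-ratio scaling gave Anxa3 0.0893, Anxa6 0.19, Anxa7 0.0655 and Anxa10 0.12, quantile normalization gave Anxa4 -0.0051 and Anxa6 0.17, and array weights gave Anxa3 0.13, Anxa7 0.0018 and Anxa10 0.02. Without the Pgc-rich libraries Anxa2 was 0.0426, Anxa3 0.25, Anxa10 0.0539 and Anxa11 0.005, and without the pancreas-rich ones Anxa4 was -0.0529 and Anxa8 -0.68. With 1 library left out the ranges were -0.77 to 0.04 for Anxa2, -0.41 to 0.25 for Anxa3, -0.0289 to 0.12 for Anxa4, -0.34 to 0.27 for Anxa6, -0.55 to 0.71 for Anxa8, -0.29 to 0.06 for Anxa10 and -0.51 to 0.005 for Anxa11. In Arid1a_Het against WT, Anxa4 was -0.0134 with quantile normalization and -0.0313 to 0.19 with 1 left out, Anxa6 was -0.0239 with array weights, -0.11 without the pancreas-rich libraries and -0.11 to 0.43 with 1 left out, Anxa7 was -0.0323 to 0.24 and Anxa11 -0.0179 to 0.57 with 1 left out. The cause of these turns was not tested. Depth limits Anxa8 in WT, where 12 to 81 reads were counted.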

Other observations

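The table holds 2 further annexins that were not among the listed members. Anxa13, an annexin of intestinal and other absorptive epithelia, had 45.9, 72.8 and 43.5 FPKM in Arid1a_Het, 30.8, 41.2 and 34.6 FPKM in Ctrl, and 40.7, 55.8 and 21.5 FPKM in WT. Every Arid1a_Het library was above every Ctrl library, with a log2 fold change of 0.56 ± 0.33 (SE) and an adjusted p of 0.51 by limma, so it was not called. Anxa9 was near the limit of detection, at 0.230 ± 0.141 FPKM in Arid1a_Het, 0.743 ± 0.286 FPKM in Ctrl and 0.877 ± 1.16 FPKM in WT (SD, n = 3), and did not pass the filter. Its 3 Arid1a_Het libraries were all below the 3 Ctrl libraries, on 7 to 23 reads in Arid1a_Het and 23 to 59 reads in Ctrl.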
